A study of Mus musculus with 6 samples.

Results

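Hras and 9 genes that report on or restrain the Ras-MAPK pathway were followed in the 6 libraries of a mouse squamous carcinoma line, PDVC57, that differed in Sox2. The 10 genes (Hras, Dusp4, Dusp5, Dusp6, Spry1, Spry2, Spry4, Etv4, Etv5 and Fosl1) were taken by name from a list, and all 10 were found among the 55385 mouse gene rows of the count table. PDVC57 is an established line that was obtained by passaging carcinogen-transformed mouse keratinocytes through a tumour, and it carries an activated Hras allele. There were 3 libraries with the genotype Sox2 KO (Sox2 disrupted) and 3 with the genotype Sox2 overexpression (Sox2 supplied in excess), and the design text describes tumour cells low or high in Sox2 that were recovered from grafts. Both groups were engineered in the same line and there were no libraries of unmodified PDVC57, so a difference between the groups has no parental reference. The vector, the guides, the number of clones, the host animals, the time of growth and the way cells were sorted are not given in the sources used here. Nothing in the labels says that replicates came from separate tumours or cultures, so p-values measure the spread between these libraries, which may be technical.

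Ras proteins are small GTPases that, when bound to GTP, recruit RAF kinases, which activate MEK and then the ERK kinases. ERK enters the nucleus, where it raises the transcription of growth genes and, at the same time, of genes that shut the cascade down again. The latter include the DUSP phosphatases, which remove the activating phosphates from MAP kinases, and the Sprouty proteins, which act between receptors and RAF. Because these feedback genes follow ERK activity, their RNA is widely used as a readout of the pathway. In mouse skin tumours induced with the carcinogen DMBA an activating mutation of Hras is the usual initiating event.

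The libraries held 31247976 to 38543221 counts, and the 10 genes together took 0.0824% to 0.116% of the counts of a knockout library and 0.222% to 0.247% of those of an overexpression library. Sox2 itself had 25 to 49 counts with knockout and 2566 to 4095 with overexpression, which separated the groups as labelled. Of 10 fibroblast markers, 10 were lower with overexpression, and their summed level was 55994 to 83767 CPM (counts scaled to library size by the TMM method) with knockout and 255 to 404 CPM with overexpression, with no marker at 0 in every overexpression library. Of 18 epithelial markers, all were detected in both groups, 12 were higher and none lower past the threshold, and their summed level was 6393 to 9901 CPM with knockout and 14506 to 19535 CPM with overexpression. Summed markers of white blood cells (26.2 to 135 CPM against 13.9 to 28.5 CPM) and of endothelium (61.6 to 154 CPM against 15.7 to 21.4 CPM) were low in both groups. Cd3e, Adgre1, S100a8, Cdh5 and Emcn among them had at most 3 counts in each overexpression library. Of the 7 tested endothelial markers 6 were called lower with overexpression, all but Tek, and the median log2 ratio of the 7 was -4.12. Of the 6 tested white blood cell markers 4 were called lower. The others, Csf1r and Cd68, were not called, with means of 6.42 and 6.13 CPM with knockout and, higher, 11.65 and 8.62 CPM with overexpression. In bulk RNA a smaller share of carcinoma cells and less RNA per carcinoma cell cannot be told apart. Every fold change was therefore also computed with the libraries scaled to the 18 epithelial genes. These 18 genes differed in log2 ratio, for example 0.15 ± 0.27 for Itga6 and 1.33 ± 0.21 for Cdh1 (SE). Whether they changed within carcinoma cells was not tested, so values on this scale cannot be read as levels per carcinoma cell.

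On the CPM scale all 10 genes were higher in every overexpression library than in any knockout library, and 9 of the 10 passed the test (adjusted p under 0.05, edgeR quasi-likelihood test), although 5 of the 10, namely Hras, Spry2, Spry4, Etv4 and Fosl1, had a log2 ratio below 0 when libraries were scaled to epithelial genes. Etv4 was the gene that missed the threshold. Over all 18504 tested genes, 13.6% were called higher with overexpression and 18% lower, and for 24.4% the lowest overexpression library exceeded the highest knockout library. The log2 ratio of overexpression to knockout (the fitted log2 fold change) had a median of 1.07 over the 10 genes, beside -0.016 over all tested genes and 1.04 over the 18 epithelial markers. Their fold changes lay between the 85.3rd and the 96.9th percentile of all tested genes. Leaving out 1 library gave between 7 and 10 called genes, and the median of the 10 then ranged from 0.92 to 1.27.

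**Figure D1:**
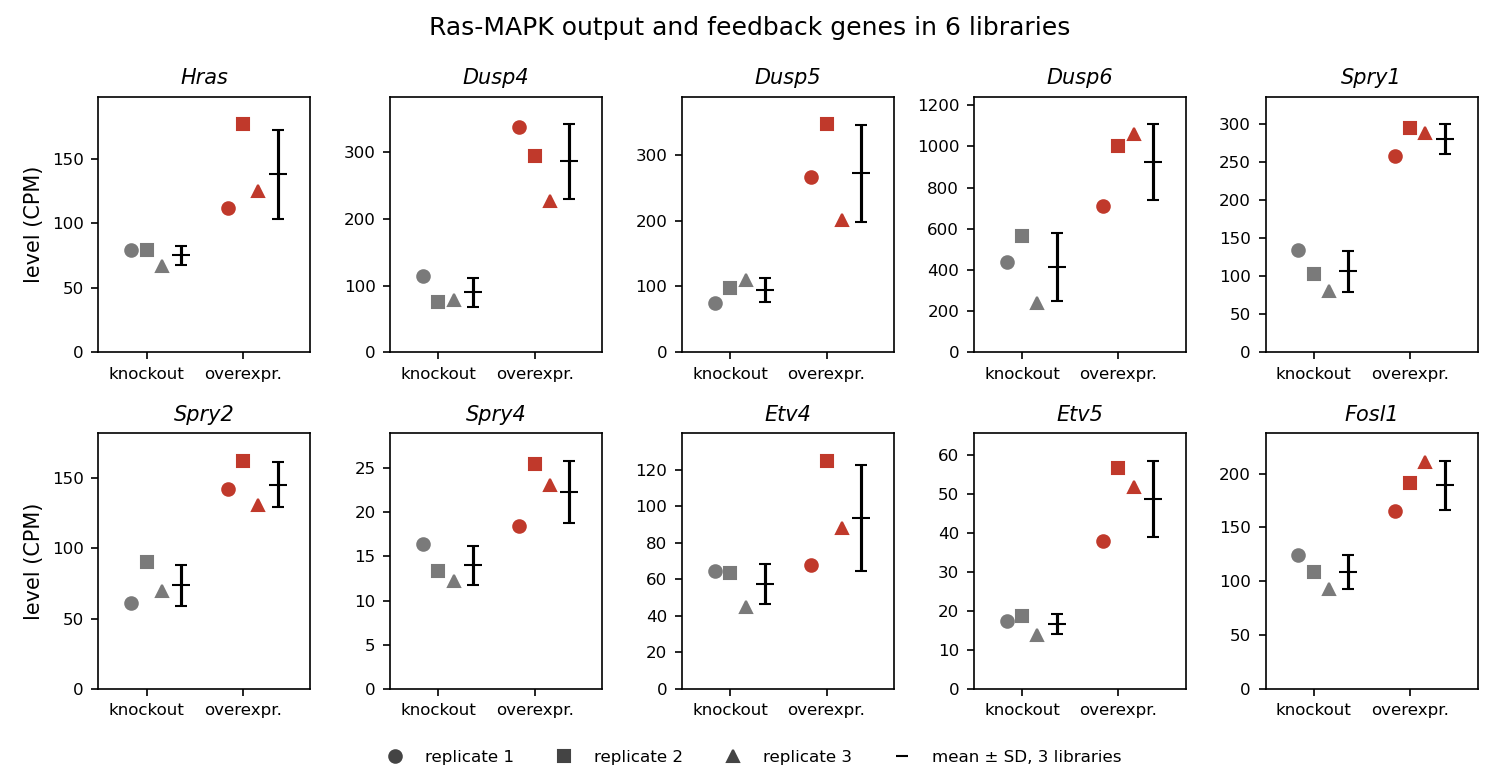
Level of each of the 10 genes in CPM (vertical axes, linear and starting at 0) in the knockout (grey) and overexpression (red) libraries, with 1 symbol per replicate and a bar for the mean ± SD of 3 libraries. In each panel the lowest overexpression library lies above the highest knockout library, most narrowly for Etv4 (67.8 against 64.5 CPM) and Spry4 (18.5 against 16.4 CPM).

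Hras encodes the Ras protein that is activated in this line, and it lies on chromosome 7 (141189105 to 141194005, minus strand, GRCm38). Its level was 79.6, 79.5 and 66.6 CPM in knockout replicates 1, 2 and 3 and 112, 177 and 125 CPM in overexpression replicates 1, 2 and 3. The knockout libraries were close to each other, while overexpression replicate 2 stood above its group. The group means were 75.3 ± 7.49 and 138 ± 34.6 CPM (SD, n = 3 each), a 1.84-fold difference with a log2 ratio of 0.88 ± 0.20 (SE, adjusted p = 0.00947, edgeR). Scaled to epithelial genes, the log2 ratio of Hras was -0.17 ± 0.21 (SE, adjusted p = 0.471, edgeR). The counts are per gene and do not separate the mutant from the normal allele. Over the 6 libraries, and among 8665 other genes with an average log2 CPM of at least 4, the profiles nearest to that of Hras were those of Pafah1b3 and Wdr45, at root-mean-square distances of 0.036 and 0.041 on the centred log2 CPM scale.

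Other Ras genes were read for comparison. Nras had 115 CPM with knockout and 139 CPM with overexpression (log2 ratio 0.27 ± 0.13 SE). Rras, Rras2 and Mras had log2 ratios of 0.26, 0.39 and -0.36. None of these 4 Ras genes passed the threshold (adjusted p from 0.108 to 0.373, edgeR), and whether their changes differ from that of Hras was not tested. Scaled to epithelial genes, all 4 were lower past the threshold, as were 69.3% of all tested genes.

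The 3 dual-specificity phosphatases Dusp4, Dusp5 and Dusp6 were higher with overexpression and passed the test, and none of them changed direction when libraries were scaled to epithelial genes, although only Dusp4 then still passed. DUSP4 and DUSP5 act in the nucleus, and DUSP6 holds and dephosphorylates ERK in the cytoplasm. Dusp4 (chromosome 8, 34807297 to 34819894) had 115, 76.0 and 79.0 CPM in knockout replicates 1, 2 and 3 and 338, 295 and 227 CPM in overexpression replicates 1, 2 and 3. The lowest overexpression library was thus well above the highest knockout library. The means were 90.0 ± 21.7 and 287 ± 56.1 CPM (SD, n = 3 each), a log2 ratio of 1.67 ± 0.22 (SE, adjusted p = 0.000612, edgeR), the largest fitted change among the 10 genes. With epithelial scaling it was 0.65 ± 0.23 (SE, adjusted p = 0.0233, edgeR), and Dusp4 was the gene among the 10 that passed under that scaling.

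Dusp5 (chromosome 19, 53529109 to 53542431) had 75.2, 97.7 and 110.2 CPM in the knockout libraries and 267, 347 and 201 CPM in the overexpression libraries, in replicate order. Its groups were far apart, with means of 94.4 ± 17.7 and 272 ± 73.1 CPM (SD, n = 3 each). The log2 ratio was 1.52 ± 0.23 (SE, adjusted p = 0.00133, edgeR), and 0.44 ± 0.28 (SE, adjusted p = 0.170, edgeR) with epithelial scaling. An antisense gene, AC137853.2, overlaps exons of Dusp5 but had only 6 to 28 counts in a library. The sequence before the start of Dusp5 is shown beside that of Dusp6, another phosphatase gene that was higher with overexpression. Within the groups the 2 genes did not move together. In knockout replicate 3 Dusp5 was highest (110.2 CPM) and Dusp6 lowest (239.7 CPM) of the group. In overexpression replicate 3 Dusp5 was lowest (201 CPM) and Dusp6 highest (1059 CPM). Dusp5 alone among the members with a promoter in the RefSeq table holds the CArG box. This element is bound by serum response factor, which works with ERK-activated ETS proteins at serum-induced genes. Each run has 150 bases, 5′ to 3′ on the plus strand of GRCm38.p6, with CArG boxes in capitals, and ends before the first annotated base of the gene.
Dusp5, chr19:53528959-53529108: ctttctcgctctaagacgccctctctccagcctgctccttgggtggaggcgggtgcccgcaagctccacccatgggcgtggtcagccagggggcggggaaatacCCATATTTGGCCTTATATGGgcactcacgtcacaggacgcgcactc
Dusp6, chr10:99263081-99263230: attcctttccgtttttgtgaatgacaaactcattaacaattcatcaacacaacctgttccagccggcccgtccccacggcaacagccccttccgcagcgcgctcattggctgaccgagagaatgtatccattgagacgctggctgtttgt

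The boxes of Dusp5 lie end to end, starting 82 and 72 bases before the RefSeq start site, and both were found by letters, not by measured binding. The promoter table holds 300-base windows (250 bases before and 50 after a start site) for 6 of the 10 genes, namely Hras, Dusp5, Dusp6, Spry1, Spry2 and Etv5, the last with 2 windows. Of all 32851 windows in the table, 1.63% hold at least 1 CArG box and 6 windows hold 2 or more. Searches for TGANTCA (the AP-1 site), CCGGAAG (an ETS site), TGACGTC (a cyclic AMP response site) and AACAATG (a SOX site) on both strands found no match in the 7 windows of these genes, where 7.81%, 8.86%, 3.21% and 3.78% of all windows hold one. The search for the CArG box was added after the sequences had been seen.

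Dusp6 (chromosome 10, 99263231 to 99267489) is the classical ERK feedback phosphatase and was the most abundant of the 10 genes. It had 437, 567 and 239.7 CPM in knockout replicates 1, 2 and 3 and 712, 999.8 and 1059 CPM in overexpression replicates 1, 2 and 3. Knockout replicate 3 was the low library and the spread within the knockout group was the widest among the 10 genes, with a coefficient of variation of 39.7%. The means were 414 ± 165 and 924 ± 186 CPM (SD, n = 3 each), a log2 ratio of 1.16 ± 0.31 (SE, adjusted p = 0.0217, edgeR). This call was lost without overexpression replicate 2 (adjusted p = 0.0645) or 3 (adjusted p = 0.0614), and the alternatives gave adjusted p-values from 0.000243 to 0.603. The highest value came with epithelial scaling, where the log2 ratio was 0.15 ± 0.26 (SE). The profile of Sfn, one of the epithelial markers, was at a distance of 0.102 from that of Dusp6.

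The 3 Sprouty genes passed the test as higher with overexpression under TMM scaling, but with epithelial scaling none of them passed, and Spry2 and Spry4 had log2 ratios below 0. Sprouty proteins are induced by receptor and Ras signalling and dampen it. Spry1 (chromosome 3, 37639947 to 37644598) had 135, 103 and 81.1 CPM in the knockout libraries and 259, 295 and 289 CPM in the overexpression libraries, in replicate order. The overexpression libraries were tightly grouped, with a coefficient of variation of 6.94%. The means of Spry1 were 106 ± 26.9 and 281 ± 19.5 CPM (SD, n = 3 each), a log2 ratio of 1.40 ± 0.20 (SE, adjusted p = 0.000922, edgeR), and 0.39 ± 0.19 (SE, adjusted p = 0.0782, edgeR) with epithelial scaling. Exons of Spry1 overlap those of Gm42922 on the other strand, which had 21 to 32 counts with knockout and 71 to 90 with overexpression.

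Spry2 (chromosome 14, 105891947 to 105896819, minus strand) had 61.3, 89.9 and 69.4 CPM in knockout replicates 1, 2 and 3 and 142, 162 and 131 CPM in overexpression replicates 1, 2 and 3. Its groups were clearly apart, with a log2 ratio of 0.98 ± 0.18 (SE, adjusted p = 0.00349, edgeR), which was -0.072 ± 0.22 (SE, adjusted p = 0.780, edgeR) with epithelial scaling. Spry4 (chromosome 18, 38586247 to 38601415, minus strand) was the scarcest member of the family. It had 16.4, 13.3 and 12.2 CPM with knockout and 18.5, 25.4 and 23.0 CPM with overexpression, in replicate order, and the groups nearly touched. Its log2 ratio was 0.67 ± 0.19 (SE, adjusted p = 0.0290, edgeR). The adjusted p of Spry4 was 0.101 without knockout replicate 2, 0.0996 without knockout replicate 3, 0.0559 without overexpression replicate 2 and 0.0789 without overexpression replicate 3, and the alternatives spanned 0.00917 to 0.171. With epithelial scaling its log2 ratio was -0.36 ± 0.23 (SE, adjusted p = 0.171, edgeR).

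Among the output transcription factors Etv5 and Fosl1 passed the test and Etv4 did not, and with epithelial scaling none of them passed, with Etv4 and Fosl1 below 0. ETV4 and ETV5 are ETS proteins of the PEA3 group that are turned on by ERK signalling, and FOSL1 (FRA1) is a FOS family partner in the AP-1 dimer that ERK both induces and stabilizes. Etv5 (chromosome 16, 22381309 to 22439719, minus strand) had 17.3, 18.7 and 13.9 CPM with knockout and 37.9, 56.6 and 51.8 CPM with overexpression, in replicate order. Every overexpression library was above every knockout library by a wide margin. The log2 ratio of Etv5 was 1.55 ± 0.20 (SE, adjusted p = 0.000523, edgeR), the smallest adjusted p among the 10 genes, and 0.51 ± 0.22 (SE, adjusted p = 0.0506, edgeR) with epithelial scaling.

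Etv4 (chromosome 11, 101769742 to 101785371, minus strand) had 64.5, 63.4 and 44.9 CPM in knockout replicates 1, 2 and 3 and 67.8, 125 and 87.9 CPM in overexpression replicates 1, 2 and 3. Overexpression replicate 1 was close to the knockout libraries and replicate 2 far above them. The means were 57.6 ± 11.0 and 93.5 ± 29.0 CPM (SD, n = 3 each), and the log2 ratio of 0.70 ± 0.24 (SE) missed the threshold (adjusted p = 0.0578, edgeR). Etv4 passed without overexpression replicate 1 (log2 ratio 0.91, adjusted p = 0.0198), without the filter on low counts (adjusted p = 0.00849), with the replicate number as a block (adjusted p = 0.0411) and in the DESeq2 test (adjusted p = 0.0279), and its adjusted p ranged from 0.00849 to 0.189 over the alternatives. Without overexpression replicate 2, its highest library, the log2 ratio of Etv4 was 0.45 (adjusted p = 0.134, edgeR). With epithelial scaling the log2 ratio of Etv4 was -0.33 ± 0.22 (SE).

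Fosl1 (chromosome 19, 5447547 to 5455946) had 125, 109 and 92.4 CPM with knockout and 165, 192 and 211 CPM with overexpression, in replicate order, so that its groups did not overlap. The means were 109 ± 16.1 and 189 ± 23.0 CPM (SD, n = 3 each), a log2 ratio of 0.80 ± 0.17 (SE, adjusted p = 0.00706, edgeR), and -0.23 ± 0.19 (SE, adjusted p = 0.279, edgeR) with epithelial scaling. The protein-coding gene Ccdc85b lies on the other strand and shares 1163 of the 2033 exon bases of Fosl1, and the strand setting is not given in the sources used here, so reads over the shared bases cannot be assigned with certainty. Ccdc85b had 67.6 ± 3.85 CPM with knockout and 93.9 ± 8.54 CPM with overexpression (SD, n = 3 each), a log2 ratio of 0.47 (adjusted p = 0.0307, edgeR). The profiles nearest to that of Fosl1 were those of Notch1 and Pak1ip1, at distances of 0.070 and 0.070.

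**Figure D2:**
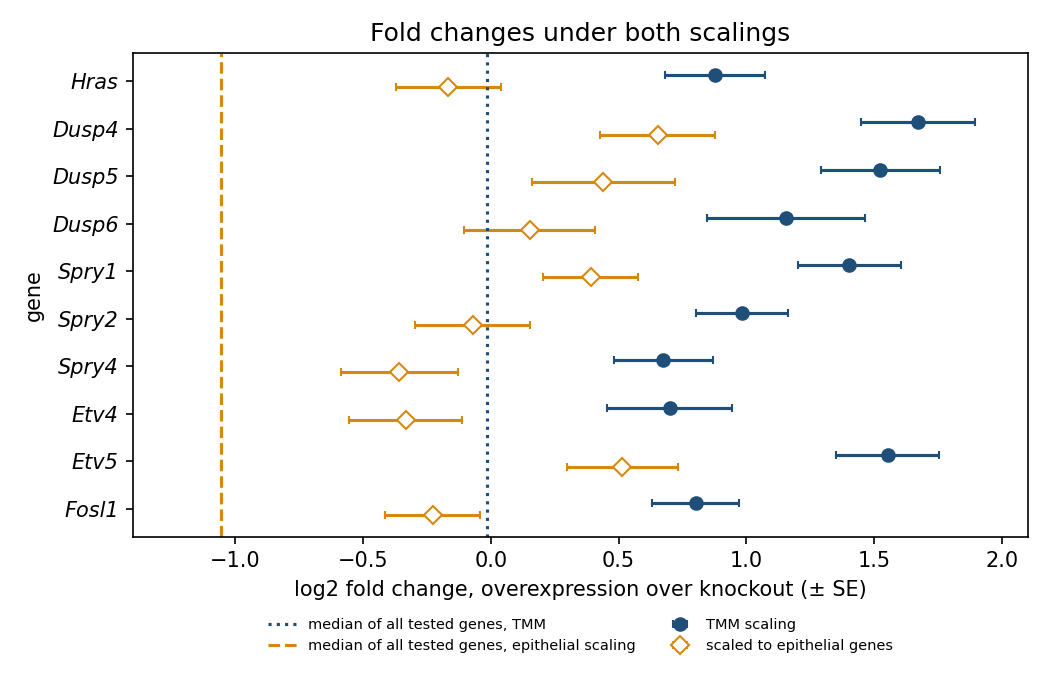
Log2 ratio of overexpression over knockout (horizontal axis, ± SE) for the 10 genes (vertical axis) with TMM scaling (filled circles) and with libraries scaled to 18 epithelial genes (open diamonds), with the median of all tested genes under each as a vertical line. The circles lie between 0.67 and 1.67, and the diamonds between -0.36 and 0.65, with Hras, Spry2, Spry4, Etv4 and Fosl1 below 0 under epithelial scaling.

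Epithelial scaling lowers the log2 ratios of all tested genes, with shifts from -1.33 to -0.41 and a median of -1.05. For the 10 genes the shift was nearly the same, with log2 ratios lowered by 1.00 to 1.08. By construction, then, the members whose TMM-scaled log2 ratio lay below that shift, 5 of the 10, came out below 0. Epithelial scaling moved the overall median log2 ratio from -0.016 to -1.06, and the share of higher genes among those called from 43.1% to 2.97%. Under this scaling 2.12% of all tested genes were called higher and 69.3% lower, and of the 10 genes 1 was called higher and 0 lower. The median of the 10 genes moved from 1.07 to 0.040. A common shift leaves ranks nearly as they were, so the percentiles of the 10 genes under epithelial scaling (85.5 to 96.9) add nothing to those given above. Expressed per epithelial marker, Dusp4 had 128 ± 20.2 units with knockout and 201 ± 45.2 with overexpression (SD, n = 3 each, CPM with epithelial scaling). Etv5 had 23.7 ± 2.16 and 33.9 ± 5.30 units on this scale, and Spry1 149 ± 14.9 and 196 ± 5.81. These 3 genes were higher in every overexpression library than in any knockout library on this scale too, where that held for 2.57% of all tested genes. Spry4 (19.9 ± 1.42 and 15.5 ± 1.75 units) and Fosl1 (154 ± 4.75 and 132 ± 13.4 units) were lower in every overexpression library than in any knockout library, as were 73.4% of all tested genes. Hras (108 ± 8.32 and 95.9 ± 19.4 units) and Spry2 (106 ± 26.5 and 101 ± 8.77 units) had overlapping groups. The fibroblast markers, summed to at most 404 CPM with overexpression and at least 55994 CPM with knockout, move with the groups, and their part in the levels of the 10 genes was not tested.

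The make-up of each family does not depend on how libraries are scaled. Per kilobase of exon, Etv5 made up 16.9%, 18.2% and 19.0% of the summed Etv4 and Etv5 level in knockout replicates 1, 2 and 3 and 29.7%, 25.5% and 30.8% in overexpression replicates 1, 2 and 3. The groups did not overlap, with means of 18.03% ± 1.06 with knockout and 28.7% ± 2.79 with overexpression (SD, n = 3 each). Spry4 made up 3.94% ± 0.464 of the Sprouty level with knockout and 2.73% ± 0.281 with overexpression (SD, n = 3 each), again without overlap. Spry1 took 43.6% to 58.5% with knockout and 55.0% to 59.5% with overexpression, and Spry2 took 37.1% to 53.0% and 37.6% to 42.3%, so their shares overlapped. The shares of Dusp4, Dusp5 and Dusp6 overlapped as well, with Dusp6 at 63.3% ± 11.1 of the phosphatase level with knockout and 57.7% ± 8.97 with overexpression (SD, n = 3 each). With 3 libraries against 3 an exact permutation test could not give a p below 0.10, and these shares were given no test. How often shares within other gene families separate in this way was not computed. The fibroblast markers move with the groups, and their part in these shares was not tested.

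**Figure D3:**
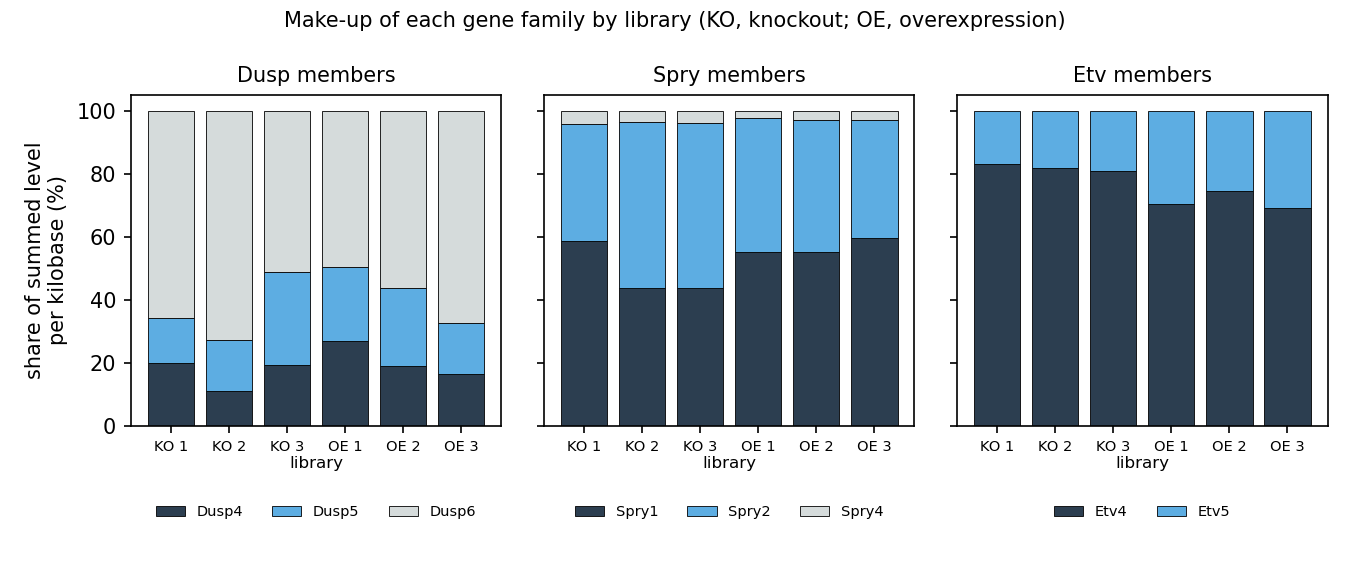
Share of each gene in the summed level per kilobase of exon of its family (vertical axis, %) for the phosphatases, the Sprouty genes and the Etv genes, with 1 stacked bar per library (horizontal axis, knockout 1 to 3 and overexpression 1 to 3). The Etv5 segment is 16.9% to 19.0% with knockout and 25.5% to 30.8% with overexpression, while the phosphatase segments overlap between groups.

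The ratio of each gene's counts to those of Hras in the same library is likewise free of the scaling. On the log2 scale the ratio of Dusp4 to Hras was 0.24 ± 0.30 with knockout and 1.06 ± 0.47 with overexpression (SD, n = 3 each), and that of Etv5 to Hras was -2.18 ± 0.087 and -1.49 ± 0.19. For Dusp4 and Etv5 every overexpression library was above every knockout library in this ratio, which also held for 3.36% of the other 18503 tested genes set against Hras. For the other 7 genes the groups overlapped, among them Fosl1 (0.52 ± 0.11 and 0.47 ± 0.33) and Dusp6 (2.38 ± 0.50 and 2.75 ± 0.30). These ratios compare changes between genes, since they are not corrected for length, and they were not tested.

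Levels per kilobase of exon put the 10 genes in order. With knockout, Dusp6 was highest at 132 ± 52.6 CPM per kilobase (SD, n = 3), followed by Fosl1 at 53.4 ± 7.91, both above their next neighbour in every library. Dusp5, Spry1, Spry2 and Dusp4 followed at 38.2, 36.6, 35.2 and 32.8, and neighbours among these 4 overlapped. Hras (20.2) and Etv4 (18.6) overlapped each other, and Etv5 (4.05) and Spry4 (2.94) were lowest and overlapped too. With overexpression Dusp6 was again highest at 295 ± 59.3 CPM per kilobase (SD, n = 3). Dusp5, Dusp4, Spry1 and Fosl1 came next at 109.9, 105, 96.7 and 93.0, where each overlapped its neighbour. Spry2 stood alone at 69.6, Hras (37.0) and Etv4 (30.1) overlapped, and Etv5 (11.9) was separate from Spry4 (4.69). Fosl1 was therefore above Dusp5 in each knockout library, but not separated from Spry1, its neighbour in the overexpression order.

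The rest of the pathway was read from a list of 45 genes arranged by role, of which 44 were tested and Spry3 was not analysed here. In TMM-scaled data 14 of the 44 were called higher, 5 lower and 25 neither, with a median log2 ratio of 0.23, against 13.6% and 18% of all tested genes called higher and lower. Of the 10 further ERK output genes 7 were higher and 1 lower (median 0.98), and of 12 further feedback inhibitors 5 were higher and 2 lower (median 0.24). None of 4 Ras genes or 4 Ras GTPase activators was called, and among the adaptors and exchange factors 1 of 6 was, as lower. Of the 6 kinases and scaffolds 1 was higher and 1 lower (median 0.265). With epithelial scaling the list had 1 gene higher, Etv1, and 31 lower, where 2.12% of all tested genes were called higher and 69.3% lower. Without knockout replicate 3 the count of higher genes was 8.

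Of the output genes, Etv1, the third PEA3 factor, had 15.4 ± 4.48 CPM with knockout and 57.3 ± 12.7 CPM with overexpression (SD, n = 3 each), a log2 ratio of 1.90 ± 0.26 (SE, adjusted p = 0.000736, edgeR), and 0.91 (adjusted p = 0.00718) with epithelial scaling. Hbegf, an EGF receptor ligand, had a log2 ratio of 1.33, Ccnd1 (cyclin D1) 1.19, Epha2 and Epha4 (ephrin receptors) 1.18 and 1.01, Phlda1 0.96 and Ier3 0.75. These 6 genes were called (Epha4 and Ier3 not in each fit with 1 library left out, with adjusted p-values up to 0.113 and 0.0658), and with epithelial scaling none of them passed, with log2 ratios between -0.28 (Ier3) and 0.32 (Hbegf). Myc had 126 ± 31.3 CPM with knockout and, lower, 83.4 ± 5.74 CPM with overexpression (SD, n = 3 each), for a log2 ratio of -0.60 ± 0.19 (SE, adjusted p = 0.0447, edgeR). This call for Myc was lost in each fit without knockout replicate 2 or 3 or without any 1 of the overexpression libraries, with adjusted p-values from 0.0686 to 0.178, and with the replicate number as a block (adjusted p = 0.0604). Junb, an AP-1 gene, had a log2 ratio of 0.73 (adjusted p = 0.0308, edgeR), with adjusted p-values up to 0.109 when 1 library was left out.

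Among the further feedback inhibitors Dusp7, a cytoplasmic ERK phosphatase, had a log2 ratio of 1.15 and Spred2, a Sprouty-related inhibitor, one of 0.90, with adjusted p-values of 0.00137 and 0.00142 (edgeR). Dusp10, Dusp8 and Il17rd had log2 ratios of 0.63, 0.61 and 0.49 and were called, with adjusted p-values up to 0.0573, 0.0956 and 0.130 when 1 library was left out. With epithelial scaling Spred2, Dusp10 and Dusp8 were below 0, and Il17rd was called in the other direction (log2 ratio -0.57, adjusted p = 0.0446, edgeR). Il17rd also missed the threshold with upper-quartile scaling (adjusted p = 0.0536), without the filter on low counts (adjusted p = 0.0607) and with the replicate number as a block (adjusted p = 0.0626). Dusp2, a nuclear phosphatase known from immune cells, was lower (log2 ratio -3.79 ± 0.58 SE, adjusted p = 0.00133, edgeR), from 4.57, 6.78 and 16.4 CPM in knockout replicates 1, 2 and 3 to at most 1.08 CPM. Without knockout replicate 3 its knockout mean went from 9.27 to 5.68 CPM and its log2 ratio to -3.07. Spred3 was lower as well, at 14.5 ± 3.09 and 5.23 ± 1.75 CPM (SD, n = 3 each).

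Of the kinases, Mapk3 (ERK1) had 98.5 ± 5.03 CPM with knockout and 201 ± 54.0 CPM with overexpression (SD, n = 3 each), a log2 ratio of 1.03 ± 0.20 (SE, adjusted p = 0.00486, edgeR). With epithelial scaling Mapk3 was at -0.024. Ksr1, a scaffold that holds RAF, MEK and ERK together, was lower, at 18.8, 33.5 and 31.3 CPM with knockout and 2.75, 2.74 and 2.88 CPM with overexpression. Its log2 ratio was -3.32 ± 0.26 (SE, adjusted p = 2.46e-05, edgeR), and -4.40 with epithelial scaling. The summed fibroblast markers were 55994, 83767 and 78180 CPM in knockout replicates 1, 2 and 3 and at most 404 CPM with overexpression. The part of fibroblast RNA in the levels of Ksr1 and Spred3 was not tested. The exchange factor Rasgrp1, known from lymphocytes, was lower at a low level (3.58 and 0.178 CPM, log2 ratio -4.35). Its knockout mean was 1.66 CPM and its log2 ratio -3.24 without knockout replicate 3, while overexpression replicate 2 left out gave an overexpression mean of 0.0811 CPM and a log2 ratio of -5.36. The summed white blood cell markers were also highest in knockout replicate 3, at 135 CPM, and their part in Rasgrp1 and Dusp2 was not tested.

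**Figure D4:**
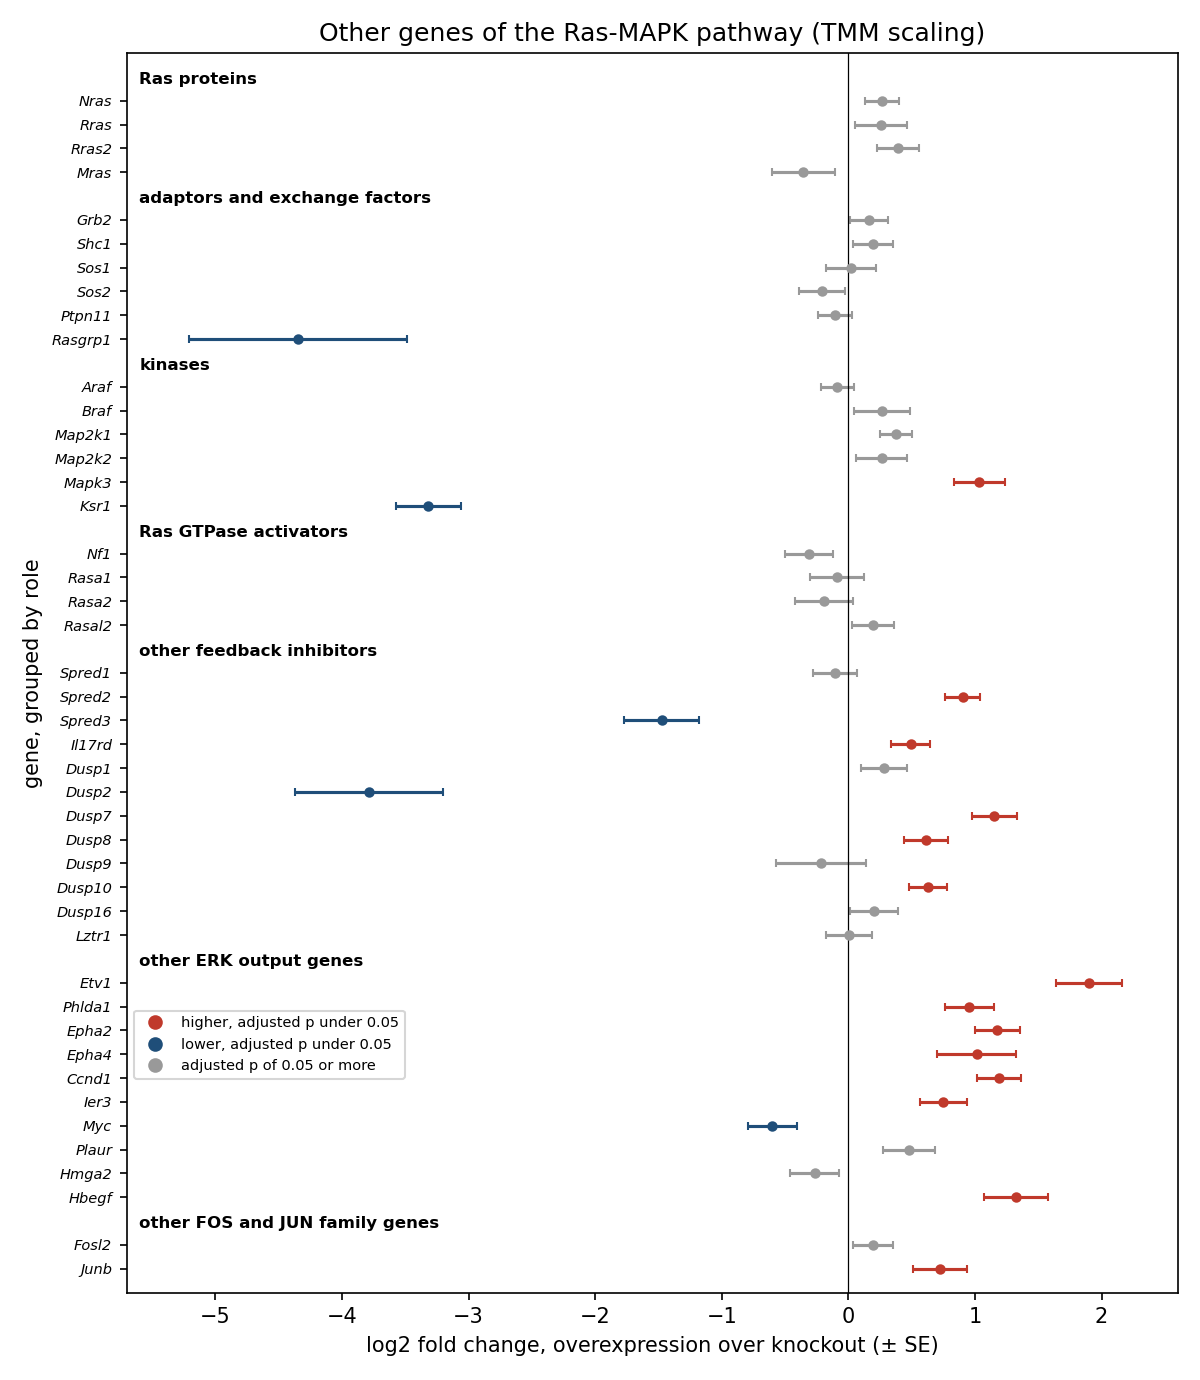
Log2 ratio of overexpression over knockout (horizontal axis, ± SE, TMM scaling) for the 44 tested genes of the wider pathway list (vertical axis), grouped by role and coloured by whether the adjusted p was under 0.05. Ras genes and GTPase activators sit near 0 in grey, 7 of 10 further output genes are called to the right, and Rasgrp1, Ksr1, Dusp2, Spred3 and Myc are called to the left. With epithelial scaling, 1 of the 44 was called higher and 31 lower, beside 2.12% and 69.3% of all tested genes.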

How the data were processed

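RNA-seq covered 6 PDVC57 libraries, 3 per Sox2 genotype. The authors deposited 1 table of whole-number raw counts, a row for each gene and a column for each library, not normalized. The submitters' processing notes name kallisto 0.44.0 and the build mm10, with no role stated. Kallisto gives estimated counts, and whether these were rounded is not given in the sources used here, nor is the annotation or the strand setting. The 96 rows that name no mouse gene (at most 2.23e-05% of a library) were left out. Symbols and positions are from GENCODE M21 (GRCm38), which matched 55144 of 55385 gene IDs, and promoter sequences from RefSeq (GRCm38.p6). No column lacked a sample.

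Low counts were removed with filterByExpr (at least 10 counts, 15 in total), libraries were scaled with TMM, and groups were compared in edgeR 4.0.16 (quasi-likelihood F test) in R 4.3.3, with group as the only term and Benjamini-Hochberg adjustment over 18504 genes (threshold 0.05). The SE is the log2 fold change divided by the square root of F. Levels per kilobase use the union of exons. The 13 alternatives were RLE, upper-quartile and epithelial scaling, no low-count filter, the replicate number as a block, robust dispersion, DESeq2 1.42.0 and each library left out. Replicate pairs differed beyond sampling noise (chi-square per degree of freedom at least 43.9). The fit was tested on simulated counts with known changes. It recovered 2 of 76 genes changed 1.5-fold, 20 of 57 changed 2-fold and 47 of 63 changed 4-fold. Of 71 calls 2 were false. A gene that was not called may therefore still differ. Named genes were the 10 members, Sox2, the called genes and the most changed gene of each role in the wider list, summed marker lists, and the nearest profiles (up to 2) for Hras, Dusp6 and Fosl1 among genes of average log2 CPM of at least 4. Other genes named, such as Nras and overlapping genes, were chosen after their values were seen. Some genes of the planned lists and rules are not reported here, and the counts over the wider list leave them out. Members and lists were chosen with earlier results of these data known. Library totals of 31247976 to 38543221 counts leave little counting error, but PCR copies could not be removed.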

Additional observations from a re-analysis of the deposited data

How the results depend on the processing

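The count of called genes among the 10 stayed between 7 and 10 under every alternative except epithelial scaling, where it was 1, and none of the 10 was called lower under any. The same scaling called 13220 of all tested genes (2.12% higher and 69.3% lower), where TMM scaling called 5848. On the wider pathway list of 44 tested genes it called 1 gene higher and 31 lower. With 1 library left out, the wider list had between 8 and 16 genes called higher. Among the genes followed through every alternative, epithelial scaling turned the log2 ratios of Hras (-0.17), Spry2 (-0.072), Spry4 (-0.36), Etv4 (-0.33), Fosl1 (-0.23), Rras2 (-0.67), Mapk3 (-0.024), Spred2 (-0.13), Il17rd (-0.57), Dusp8 (-0.41), Dusp10 (-0.41), Phlda1 (-0.095), Ier3 (-0.28) and Junb (-0.32). Further genes of the wider list turned under it too, among them Nras (-0.78) and Rras (-0.79). This scaling shifts all log2 ratios down, with a median shift of -1.05 and a range from -1.33 to -0.41 over all tested genes. Positive values smaller than their shift thus turned by construction.

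Same-numbered libraries did not deviate together (correlations across genes of 0.051, 0.022 and -0.040 for replicates 1, 2 and 3), so the numbers were not taken as pairs. With the replicate number as a block (replicate block), 5593 genes and 10 of the 10 members were called. Under the block Il17rd (adjusted p = 0.0626) missed the threshold.

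Of the 19 called genes of the wider list, 12 passed whichever library was left out. The remaining 7 (Il17rd, Dusp8, Dusp10, Epha4, Ier3, Myc and Junb) missed it in at least 1, with adjusted p-values then from 0.0516 to 0.178, and no direction changed. Without knockout replicate 1 these were Il17rd (0.112) and Junb (0.0982). Without knockout replicate 2 they were Il17rd (0.130), Dusp8 (0.0798), Dusp10 (0.0529), Epha4 (0.113) and Myc (0.178). Without knockout replicate 3 all 7 missed it, with Il17rd at 0.0766, Dusp8 at 0.0956, Dusp10 at 0.0573, Epha4 at 0.0999, Ier3 at 0.0658, Myc at 0.09997 and Junb at 0.109. Without overexpression replicate 1 they were Epha4 (0.0729) and Myc (0.0686), and without overexpression replicate 2 Myc (0.09997) and Junb (0.0516). Without overexpression replicate 3 they were Il17rd (0.110), Dusp8 (0.0757), Epha4 (0.106), Myc (0.133) and Junb (0.0598). All 10 members had at least 402 counts in each library, so replicate spread and not counting error limits them.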
